A study of Mus musculus with 6 samples.

Results

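The miR-200 family was read on a quantitative RT-PCR panel of mouse CD8+ T cells as the mouse-named assays, without a star, for miR-200a, miR-200b, miR-200c, miR-141 and miR-429. Of these 5 names, 4 had such an assay, miR-200a (listed as mmu-mir-200a), miR-200b, miR-200c and miR-141, among 345 miRNA assays with normalized values. miR-429 was present as a human-named assay and is given beside the 4. The 6 samples were CD8+ pMel-1 transgenic T cells, whose transgenic receptor recognises gp100, a melanoma antigen, primed in vitro for 3 days. In 3 samples bone marrow-derived dendritic cells matured with lipopolysaccharide were the priming cells (DC-primed, or the DC arm), and in the other 3 splenic B cells loaded with the hgp100(25-33) peptide were (B cell-primed, or the B cell arm, the control). Both arms were run in 3 rounds, with 1 sample per arm and round, and whether rounds came from separate animals was not stated, so p-values measure the spread between these samples only. No genotype beyond the receptor transgene, and no age, was given. The T cells were not stated to have been separated from the priming cells before RNA extraction.

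The miR-200 family is known as a keeper of the epithelial state. Its members repress the transcription factors ZEB1 and ZEB2, which in turn repress the genes of the miR-200 family, and transforming growth factor beta shifts this balance towards the ZEB factors. In CD8+ T cells ZEB1 and ZEB2 take part in the choice between memory and terminal effector fates, and the miR-200 family is known there as part of the same circuit. No ZEB transcript or protein was measured here.

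The mature sequences show how the family splits and how close its assays lie to each other. They are RefSeq's mouse sequences on build GRCm38.p6, matched by name for all 5 miRNAs. The assay names give no arm, so the 3p strand was taken for the plain names and the 5p strand for the star names. Each is written 5′ to 3′ with the seed, bases 2 to 8, in capitals.
miR-200a: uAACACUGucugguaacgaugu
miR-141: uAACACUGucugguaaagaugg
miR-200b: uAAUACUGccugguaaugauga
miR-200c: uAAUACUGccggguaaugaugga
miR-429: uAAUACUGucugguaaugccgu
miR-200a and miR-141 share the seed AACACUG, and miR-200b, miR-200c and miR-429 share AAUACUG. Of 1679 named mature mouse miRNAs in the table, 2 carry the first seed and 3 the second, so no miRNA outside the family has either. Counted from 1 at the 5′ end, miR-141 differs from miR-200a by C17A and U22G. miR-200c differs from miR-200b by U11G and A22G and is 1 base longer, at 23 against 22. Between the seed groups, miR-200b differs from miR-200a by C4U, which lies in the seed, and by U9C, C17U and U22A.

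The seeds cut across the genes. miR-200b (chr4:156055685-156055706), miR-200a (chr4:156054911-156054932) and miR-429 (chr4:156053916-156053937) lie on the minus strand of chromosome 4, with their hairpins within 1846 bases. miR-200c (chr6:124718324-124718346) and miR-141 (chr6:124717917-124717938) lie on the minus strand of chromosome 6, with hairpins within 477 bases. Each locus therefore encodes both seeds. Since the method adds a poly(A) tail and reads each miRNA with 1 specific forward primer, assays for sequences that differ by 2 bases of 22 may share signal, and no value here measures how much.

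Depth is given by the threshold cycle (Ct), the PCR cycle at which signal appears, where 1 cycle later means about 2-fold less template. The mean Ct of the 274 assays below Ct 35 in all 6 samples in rounds 1, 2 and 3 was 26.3, 28.4 and 30.5 for the DC arm, and 26.4, 27.2 and 27.6 for the B cell arm. DC-primed sample 3 stood apart as the latest, with 280 assays below Ct 35 against 327 to 341 in the other samples, so values without it stand beside the results. All 24 Ct values of the miR-200 family, 4 assays in 6 samples, were below 35, from 24.33 to 33.42, and all 4 assays were tested. Of 7 leukocyte marker assays, 6 were below Ct 35 in every sample, up to 34.14 for miR-342-3p. The other, miR-142-3p, had no Ct in DC-primed sample 3 and was not tested. The deposited normalized values do hold one for miR-142-3p in that sample, so the missing Ct does not show that it was absent. None of the markers read here tells CD8+ T cells from other leukocytes.

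Raw Ct of the members followed the depth of the samples unequally. For miR-200a the Ct in rounds 1, 2 and 3 was 27.55, 28.65 and 29.70 in the DC arm and 28.91, 28.88 and 28.25 in the B cell arm. Its 6 values spanned 2.15 cycles, and 23 of the 274 tested assays had a smaller span. The median span was 4.54 cycles. For miR-200b it was 26.24, 29.63 and 32.39 in the DC arm and 27.76, 29.45 and 28.98 in the B cell arm, so it came latest in DC-primed sample 3. For miR-141 it was 28.73, 30.30 and 33.42 in the DC arm and 29.68, 29.10 and 29.35 in the B cell arm, with its latest value in the same sample. miR-200c ran the other way, at 27.94, 27.77 and 26.99 in the DC arm and 26.24, 24.33 and 25.10 in the B cell arm. From DC-primed sample 1 to DC-primed sample 3 its Ct came 0.95 cycles earlier (a difference of -0.95), while the median tested assay came 3.58 cycles later, and 2 of 274 assays had a lower difference than miR-200c.

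**Figure D1:**
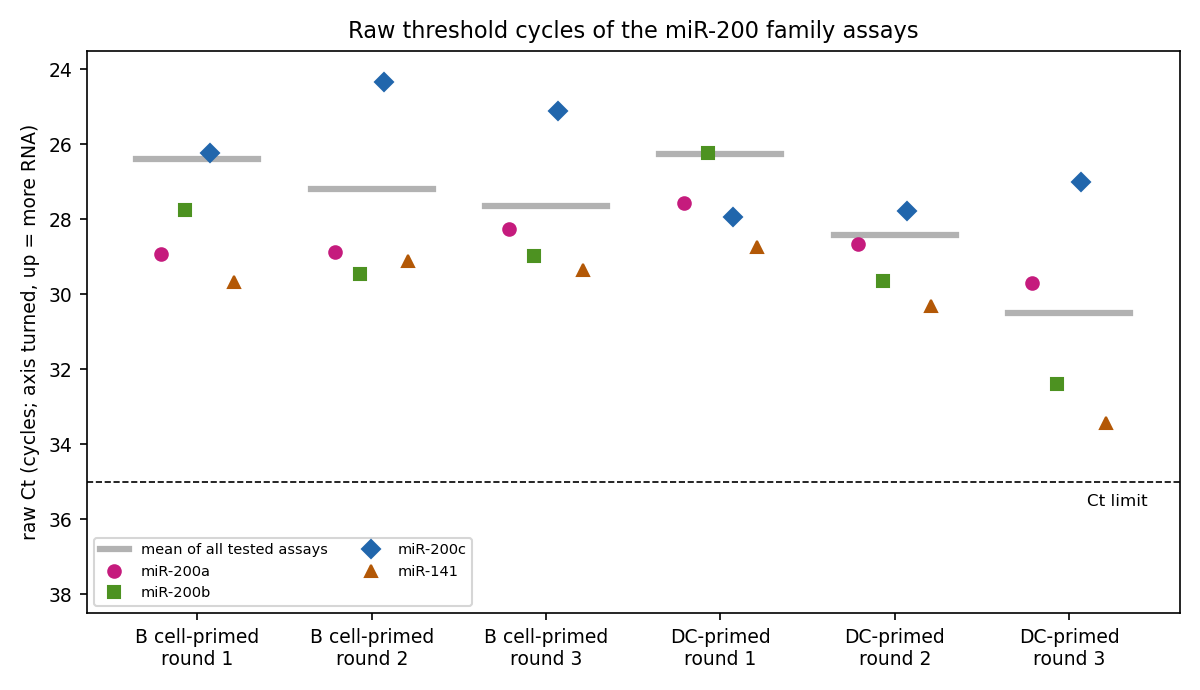
Raw Ct (cycles, axis turned so that up means more RNA) of the 4 miR-200 family assays in each of the 6 samples, with a grey bar for the mean of the 274 tested assays and a dashed line at the Ct limit of 35. The mean falls to 30.5 in DC-primed sample 3, where miR-200b and miR-141 are at 32.39 and 33.42 and miR-200c is at 26.99.

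By raw Ct, miR-200c came first of the 4 in 5 of 6 samples and miR-200b in DC-primed sample 1. miR-141 came last in 5 of 6 samples and miR-200b in B cell-primed sample 2. Ct also depends on how well each primer works, so this order is that of the signals. miR-200c was ahead of all but 31 of the 274 tested assays in DC-primed sample 3 and behind 169 of them in DC-primed sample 1. In the B cell arm the neighbours miR-200a, at a mean Ct of 28.68 ± 0.37, and miR-200b, at 28.73 ± 0.87 (SD, n = 3 each), did not differ beyond their spread.

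The comparison asked whether these miRNAs differ in CD8+ T cells by the cell that primed them. Levels are given as minus dCt, where dCt is Ct minus the authors' number for the sample, so that higher means more miRNA and 1 unit is 2-fold on the log2 scale. miR-200a and miR-200b had higher mean levels in DC-primed cells and miR-200c and miR-141 lower ones. None of the 4 passed the test. limma with the round as a block called 0 of the 4 members and 0 of all 274 assays (0%) at an adjusted p under 0.05, and at an unadjusted p under 0.05 it had 0 of 4 against 33 of 274 (12%). The median difference was 0.26 over the 4 members and 0.071 over all assays tested. The levels of the groups overlapped for all 4 members, while they did not overlap for 37 of 274 assays (13.5%). A single sign in all 3 rounds was seen for 1 member, miR-200a, and for 70 of 274 assays (25.5%). Since each value was read from the total RNA of a sample, fewer cells of a type and less RNA per cell cannot be told apart.

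**Figure D2:**
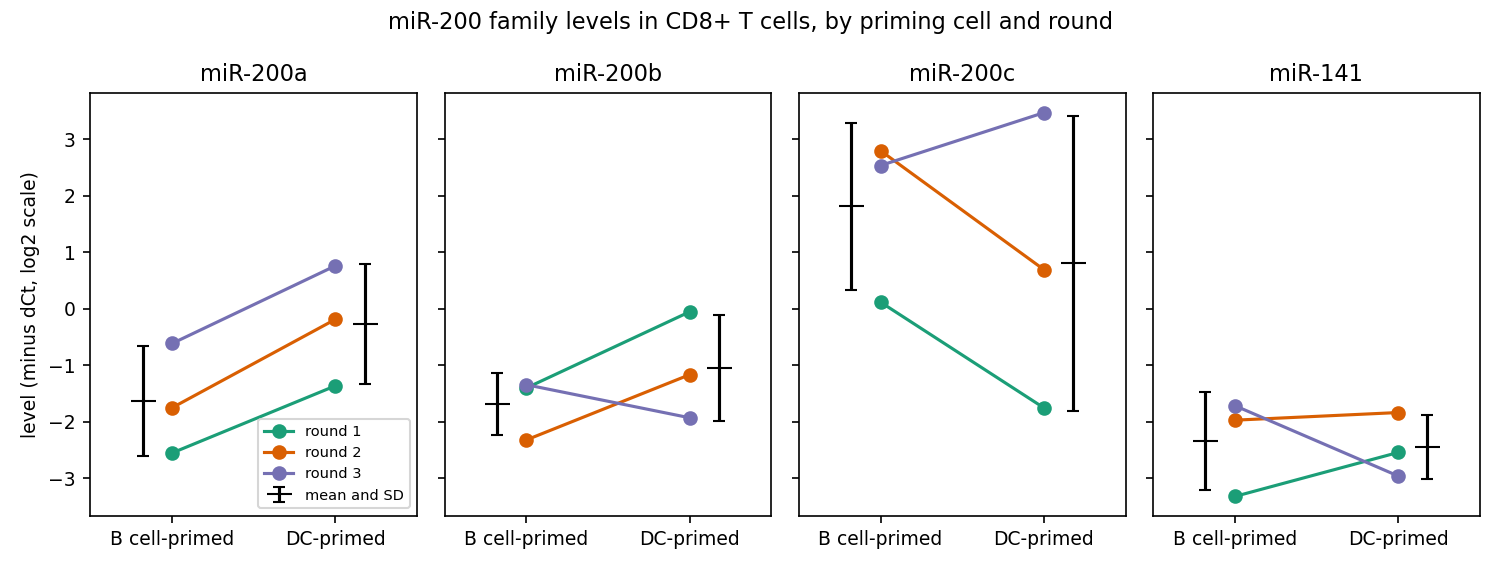
Level (minus dCt, log2 scale) of each miR-200 family assay in B cell-primed and DC-primed samples, with lines joining the samples of a round and black bars for the mean and SD of 3 samples. The 3 miR-200a lines are nearly parallel, with differences of 1.19, 1.57 and 1.38, while those of miR-200b, miR-200c and miR-141 run both ways.

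miR-200a, from chromosome 4, had levels of -1.37, -0.19 and 0.76 in rounds 1, 2 and 3 of the DC arm. In the B cell arm they were -2.56, -1.76 and -0.62. The DC-primed value was the higher one in every round, by 1.19, 1.57 and 1.38, but the rounds differed among themselves by more than that, so the groups overlapped. Mean levels were -0.27 ± 1.06 for the DC arm and -1.64 ± 0.97 for the B cell arm (SD, 3 samples each). The difference was 1.38 ± 0.77 (SE; 95% interval -0.26 to 3.01; limma, adjusted p = 0.504), with a DC-primed level higher in all 3 rounds, as in 35 of 274 assays (12.8%). It was 23rd of the 274 in size towards DC-primed cells, where 46 assays (16.8%) were higher by 1 or more. The 3 differences had an SD of 0.19, the sixth smallest (rank 6) of the 274.

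The authors' deposited table gives miR-200a a 2.60-fold higher level in DC-primed cells with p = 0.00617 by their two-tailed paired test per assay, and recomputing it from the deposited dCt gave exactly that p. That p was the fourth smallest (rank 4) of 345, among 18 under 0.05 (5.22%), and its Benjamini-Hochberg adjusted value was 0.532. The paired test took its error from the 3 differences of this assay alone, whereas limma drew the SE of 0.77 towards the spread of all 274 assays. Without round 3 limma gave 1.38 (adjusted p = 0.770), and with DC-primed sample 3 alone left out and no block 0.86 (0.807). Without any normalization the difference was 0.047, with a mean Ct of 28.63 for the DC arm and 28.68 for the B cell arm, and the median of all tested assays then stood at -1.26.

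miR-141 carries the seed of miR-200a but comes from chromosome 6. Its levels were -2.55, -1.84 and -2.96 in the DC arm and -3.33, -1.98 and -1.72 in the B cell arm. The DC arm lay wholly inside the range of the B cell arm, with means of -2.45 ± 0.57 and -2.34 ± 0.86 (SD, 3 samples each). The differences by round were 0.78, 0.14 and -1.24, so round 3 ran against the other rounds. The overall difference was -0.11 ± 0.80 (SE; 95% interval -1.80 to 1.58; limma, adjusted p = 0.988), and it was 0.46 without round 3 and 0.15 with only DC-primed sample 3 left out and no block.

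miR-200b, the neighbour of miR-200a on chromosome 4, had levels of -0.058, -1.17 and -1.93 in the DC arm and of -1.41, -2.33 and -1.35 in the B cell arm. The DC-primed sample of round 1 was the highest of the 6, and the DC-primed sample of round 3 was second lowest. By round it differed by 1.35, 1.16 and -0.58. Mean levels were -1.05 ± 0.94 and -1.69 ± 0.55 (SD, 3 samples each). The difference was 0.64 ± 0.80 (SE; 95% interval -1.06 to 2.34; limma, adjusted p = 0.921) on the authors' scale, and -0.69 without normalization. Without round 3 it was 1.25, and with only DC-primed sample 3 left out and no block it was 1.08.

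miR-200c, which shares the seed of miR-200b, had the widest range of the 4 in both arms. Its levels were -1.76, 0.69 and 3.47 in the DC arm and 0.11, 2.79 and 2.53 in the B cell arm. The lowest and the highest of the 6 were both DC-primed, 5.22 units apart. These are the samples of rounds 1 and 3, where miR-200b was at its highest and second lowest. Mean levels were 0.80 ± 2.61 and 1.81 ± 1.48 (SD, 3 samples each). The difference was -1.01 ± 0.84 (SE; 95% interval -2.80 to 0.77; limma, adjusted p = 0.787), where 42 of 274 assays (15.3%) were lower by 1 or more. It was -1.87 and -2.10 in rounds 1 and 2 but 0.94 in round 3. Without round 3 the difference was -1.99 (adjusted p = 0.462), and with only DC-primed sample 3 left out and no block it was -2.35 (0.314). Without DC-primed sample 1 and no block it was 0.26, and relative to the control RNAs RNY3 and snoRD47 it was 0.21, so its sign rested on the sample and the scaling.

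**Figure D3:**
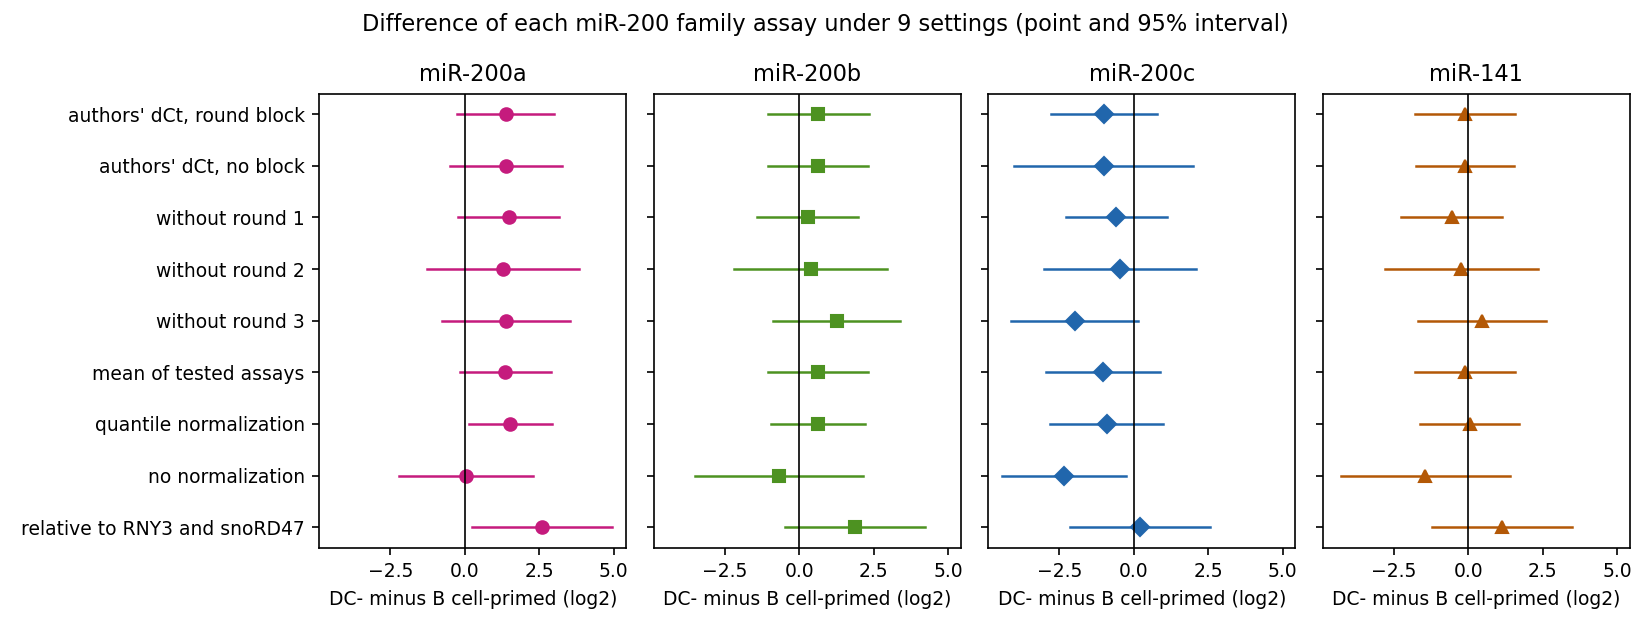
Difference, DC arm minus B cell arm (log2 scale, point and limma's 95% interval) of the 4 miR-200 family assays under 9 settings, the first being the one reported. miR-200a is above 0 in all of them, from 0.047 without normalization to 2.60 relative to RNY3 and snoRD47, and miR-200b and miR-141 take both signs, as does miR-200c, at 0.21 relative to those RNAs.

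Relative to the median of all tested assays, the members stood at 1.30 for miR-200a, 0.57 for miR-200b, -1.08 for miR-200c and -0.18 for miR-141. These values were the same on the authors' scale, without normalization and relative to the control RNAs, whose median of all assays was 0.071, -1.26 and 1.30. The differences of single members thus depend on the number subtracted per sample, while the ratio of a pair of members within a sample does not. The change of each of the 6 ratios between the groups was therefore tested from raw Ct by an exact permutation test, where 3 samples against 3 allow no two-sided p below 0.1. Of the 6, 1 reached that limit. Paired by round, an exact sign permutation allows no p below 0.25, which 3 of the 6 reached (miR-200a over miR-200c, miR-200a over miR-141 and miR-200b over miR-141), and the other 3 had p = 0.5. The ratio of miR-200a over miR-141, the pair with a shared seed, was 1.18, 1.65 and 3.72 in the DC arm and 0.77, 0.22 and 1.10 in the B cell arm on the log2 scale. Every DC-primed value lay above every B cell-primed one, a change of 1.49 ± 0.82 (SE) with exact p = 0.1, or 0.6 adjusted over the 6 pairs, and the change was 0.72 without DC-primed sample 3. That was 1 of 6 pairs without overlap, and over all 37401 pairs of tested assays 5159 (13.8%) had none.

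The ratio of miR-200a over miR-200c changed by 2.39 ± 1.06 (SE), the largest size of the 6. It was 0.39, -0.88 and -2.71 in the DC arm and -2.67, -4.55 and -3.15 in the B cell arm. The groups overlapped through DC-primed sample 3 (exact p = 0.2, adjusted 0.6), although the DC-primed ratio was the higher one in every round, by 3.06, 3.67 and 0.44. Without DC-primed sample 3 the change was 3.21.

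Between neighbours on a chromosome, miR-200a over miR-200b changed by 0.74 ± 1.31 (SE; exact p = 0.5), and by -0.21 without DC-primed sample 3. miR-200c over miR-141 changed by -0.90 ± 1.71 (exact p = 0.6), with -2.65, -2.24 and 2.18 in the 3 rounds and -2.49 without DC-primed sample 3. Across the loci, miR-200b over miR-141 changed by 0.57, 1.02 and 0.66 by round, with a mean of 0.75 ± 0.87 (SE over the groups; exact p = 0.4). Leaving out single samples moved that mean to 0.20 (DC arm, round 1), 0.25 (B cell arm, round 2), 1.39 (B cell arm, round 1) or 0.93 (DC arm, round 3). miR-200b over miR-200c, the pair that differs by 2 bases over the 22 compared, changed by 3.22 and 3.26 in rounds 1 and 2 and by -1.52 in round 3 (mean 1.65 ± 2.31, SE; exact p = 0.7), and by 3.43 on average without DC-primed sample 3. The last 4 pairs all had an adjusted p of 0.7.

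**Figure D4:**
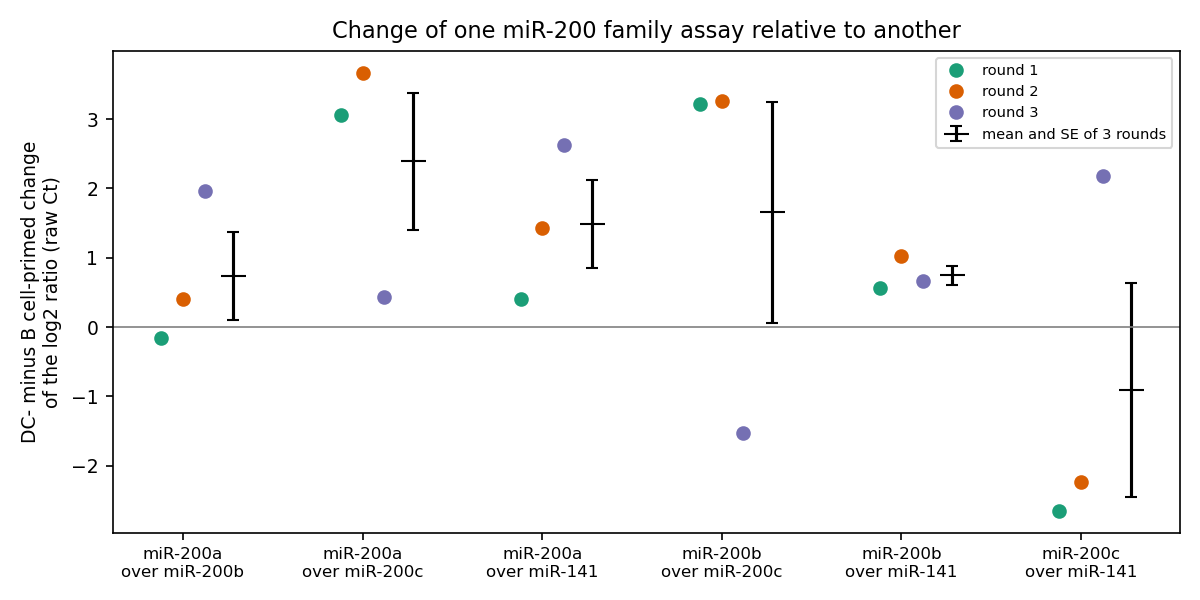
Change from the B cell arm to the DC arm of the log2 ratio of each pair of miR-200 family assays, from raw Ct, by round (coloured points), with the mean and the SE of 3 rounds in black. Ratios of miR-200a over miR-200c and over miR-141, and of miR-200b over miR-141, are above 0 in all 3 rounds, and the other 3 pairs take both signs.

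The other strand of each hairpin was also on the panel. The star assays differed by 0.25 ± 0.79 for miR-200a*, -0.20 ± 0.78 for miR-200b* and -0.21 ± 0.80 for miR-141* (SE; limma, adjusted p = 0.988 each). miR-200c* differed by -0.00025 ± 0.80 (adjusted p = 1.0). Without DC-primed sample 3 and with no block the 4 star assays stood at 0.84, -0.11, -0.15 and -0.80 in that order (limma, adjusted p from 0.771 to 0.988). The plain assay of miR-200c came 4.40 to 9.14 cycles before its star assay in all 6 samples. For miR-200a and miR-141 the order was turned in all 6 samples. Their Ct of the star assay minus that of the plain assay was -4.36 to -0.24 and -2.93 to -1.21 cycles. For miR-200b the plain assay was earlier in 2 of 6. Since Ct also depends on how well each primer works, these orders do not show which strand was more abundant. The gap between the strands differed between the groups by 1.13 cycles for miR-200a, 0.84 for miR-200b, -1.01 for miR-200c and 0.10 for miR-141. An exact permutation test gave p = 0.5, 0.2, 0.7 and 1.0, or 0.8 to 1.0 adjusted over the 4. With 3 samples against 3 that test allows no p below 0.1, so none of the 4 could pass 0.05. Without DC-primed sample 3 these differences in gap were 0.028, 1.18, -1.54 and 0.29 cycles. Whether the human-named miR-429 assay matches the mouse sequence given above was not checked. Its Ct was 31.51, 32.63 and 34.95 in the DC arm and 29.29, 32.12 and 31.00 in the B cell arm. The assay differed by -0.90 ± 0.84 (SE; limma, adjusted p = 0.848). By round it differed by -2.39, 0.83 and -1.12, and without DC-primed sample 3 and no block the difference was -0.98 (limma, adjusted p = 0.771).

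The assays most like each member in level over the 6 samples, among the 273 others tested, were not members of the family. For miR-200a they were miR-323-5p (Pearson r = 0.95), miR-875-5p (0.92) and miR-181b (0.91). For miR-200b they were miR-125a-5p (0.95), miR-150 (0.93) and miR-222 (0.89). For miR-200c they were miR-106b* (0.98), the human-named miR-195* (0.84) and miR-377 (0.83), and for miR-141 miR-138 (0.80), miR-302c (0.75) and the human-named miR-519a* (0.73). Between members r ran from -0.88 (miR-200b with miR-200c) to 0.48 (miR-200a with miR-200c). All these values of r are descriptions over 6 samples that share a normalizing number per sample and fall into 2 groups. Over the 5 samples without DC-primed sample 3 the 12 values of r with assays outside the family ran from 0.73 to 0.98. Since those assays were picked as most alike with these 5 samples included, that range is no separate check.

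Of the miRNAs linked to the epithelial state or to ZEB factors, 6 of 10 listed names had an assay, which gave 8 assays and 5 tested. limma called 0, with 1 higher, 4 lower and a median difference of -0.23. Over all 274 tested assays, 146 were higher and 128 lower, with a median of 0.071. The largest of the list was miR-101a at 1.96 ± 1.01 (SE, limma adjusted p = 0.479), with 5.73, -0.22 and 0.39 in rounds 1, 2 and 3. Its mean thus rested on round 1. The smallest was miR-182, of the miR-183 cluster, at -2.19 ± 0.83 (0.231). Of the list linked to transforming growth factor beta, 11 of 15 names gave 19 assays and 14 tested. limma called 0, with 10 higher, 4 lower and a median of 0.33. Its largest was miR-21 at 3.19 ± 0.90 (0.0792) and its smallest miR-23a at -3.42 ± 0.79 (0.0522) from the deposited dCt, although the deposited Ct values of miR-23a do not give that dCt. Without DC-primed sample 3 and with no block, limma called 0 of 7 tested assays of the first list (median -1.27). Of the second it called 0 of 18 (median 0.78). Over all 319 assays then tested it called 5, with a median of 0.016.

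Markers of cells that could remain in the cultures were read beside the family. The myeloid and dendritic list had an assay for 8 of 9 names, 11 assays in all with 8 tested, of which 7 were higher in DC-primed cells, 1 was lower and 0 were called, with a median of 1.92. Its level summed over the 11 assays, as 2 to the power of minus dCt, was 175, 26.5 and 8.35 in rounds 1, 2 and 3 of the DC arm and 3.27, 4.96 and 4.59 in the B cell arm. Without DC-primed sample 3 and with no block, limma called 2 of its 10 tested assays, miR-223 and miR-146b. All 10 were higher in the DC arm (median 3.36). Over all 319 assays then tested limma called 5, with a median of 0.016. miR-223, a defining myeloid miRNA, came at Ct 20.8, 27.2 and 37.0 in rounds 1, 2 and 3 of the DC arm and at 32.1, 32.4 and 32.7 in the B cell arm, so in round 3 it was later in the DC arm. The B cell list, which shares miR-150 and miR-34a with other lists, had an assay for 4 of 5 names, with 4 of 5 tested assays higher, 0 called and summed levels of 20.7 to 50.3 in the DC arm and 12.4 to 18.5 in the B cell arm. Its median was 0.80, and 0.083 without DC-primed sample 3 and with no block, where 3 were higher and 2 lower. Its miR-126-3p assay, not tested, came at Ct 30.4, 39.8 and 39.0 in rounds 1, 2 and 3 of the DC arm. In the B cell arm miR-126-3p came at 29.4, 29.0 and 31.9, so it was later in the DC arm in every round. Its DC-primed Ct in rounds 2 and 3 lay past the Ct limit for testing. The mean differences of 4 of the 5 tested assays of the list ran the other way, so miR-126-3p does not stand for the list. Of 6 epithelial marker names 2 had an assay, both also in the ZEB-linked list. The human-named miR-205 had a Ct of 31.4 to 35.9 and miR-194 of 25.5 to 30.1, with summed levels of 0.318 to 1.69 in the DC arm and 0.657 to 1.49 in the B cell arm, so those ranges overlapped. The part of these cells in the values of the miR-200 family was not tested.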

How the data were processed

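MicroRNA levels were measured by SYBR Green RT-PCR in 6 samples, 3 per group. Per the labels' protocols, total RNA was tailed with poly(A), reverse transcribed from tagged oligo-dT and amplified with 1 forward primer per miRNA. For the instrument and the Ct rule, nothing was given in the sources used here. The deposited tables hold, per the file headers, Ct as read in one and the authors' dCt in another (log2 scale, sign turned), normalized to the geometric mean of a sample's Ct values, and the file names state the reverse. For the 4 miR-200 assays, Ct minus 1 number per sample gave the deposited dCt. The authors deposited a p-value per assay from a two-tailed paired test and a fold change, the ratio DC-primed over B cell-primed.

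Assays with a Ct below 35 in all 6 samples were tested (274 of 345) with limma 3.58.1 in R 4.3.3 (lmFit, eBayes, no trend, two-sided, Benjamini-Hochberg, threshold 0.05), with the round as a block because the authors' test is paired. Rounds come from the sample titles. Deviations from the group means correlated within rounds at 0.16, 0.14 and 0.46, and between rounds at -0.42 to 0.33, the last for DC-primed round 1 with B cell-primed round 2. The fit was tested on simulated data. Ratios of members were compared by exact permutation in scipy 1.17.1, and figures drawn with matplotlib 3.10.9. Named were all members, their star and human-named assays, the 3 assays most like each member, and the largest and smallest tested assay of 2 related lists; miR-223 and the other markers were named as cell markers. The members and lists were chosen with earlier results of these data known. Alternatives covered the block, left-out samples, 4 normalizations, Ct limits, a variance trend and the authors' paired test.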

Additional observations from a re-analysis of the deposited data

How the results depend on the processing

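None of the members tested was called under any of the 19 alternatives (limma throughout, besides the authors' paired test after adjustment). Over all assays it called 0 with the round block, and 3 relative to RNY3 and snoRD47, 6 with a Ct limit of 32 (175 assays) and 12 with a variance trend. Leaving out a round gave 0 to 21 calls, and leaving out a sample with no block 0 to 5, with the 21 without round 1 and 4 without round 3, and 5 without DC-primed sample 3. With no replicate block limma called 0, and the adjusted p of miR-200a was 0.720, of miR-200b 0.971, of miR-200c 0.971 and of miR-141 0.986, so the block changed no call. miR-200a ran from 0.047 to 2.60 over its alternatives and was above 0 in all of them. After adjustment it passed 0.05 in none of them. Without adjustment it did so by the authors' paired test, with the same difference of 1.38, and with limma after quantile normalization, relative to RNY3 and snoRD47, and with no block without DC-primed sample 1. miR-200b turned to -0.69 without normalization and was 0.14 to 1.25 with a round or sample left out. miR-200c was -2.35 to 0.26 with a round or sample left out, and 0.21 relative to RNY3 and snoRD47. Without normalization miR-200c was -2.34 (limma, unadjusted p = 0.0330) and miR-141 -1.44 (0.259), against a median of -1.26 over all tested assays. With no block and without DC-primed sample 3, miR-200c also had an unadjusted p under 0.05 (limma, 0.0491). miR-141 was -0.55 to 0.46 with a round left out and -0.60 to 0.20 with a sample left out and no block, with 0.072 and 0.15 among them, and turned to 0.043 after quantile normalization and 1.12 relative to RNY3 and snoRD47. Leaving out single samples, the ratio of miR-200a over miR-200b changed by -0.21 to 1.78, that of miR-200b over miR-141 by 0.20 to 1.39, that of miR-200b over miR-200c by -0.12 to 3.43 and that of miR-200c over miR-141 by -2.49 to 0.33. With a Ct limit of 32 in place of 35, 2 members, miR-200a and miR-200c, could be tested. Under a block, a round without 1 of its samples carries no difference, so whole rounds were left out there. The number of samples, 3 per group, limits all of these values.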
